A study of Mus musculus with 8 samples.

Results

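Colon epithelium of mice labelled as B3gnt7 knockouts was set against wild-type colon epithelium, gene by gene, in 4 of the 8 RNA-sequencing libraries of a study of 4 genotypes. The 4 libraries were the 2 labelled B3gnt7-/- and the 2 labelled wild-type, with 1 male and 1 female library each. All mice were C57BL/6J and untreated, and their age was not given. The other 4 libraries, also 1 male and 1 female per genotype, came from St6galnac6-/- mice, which lack a sialyltransferase, and from B3galt5D116A mice, which carry a substitution in a galactosyltransferase. The labels call the samples primary epithelial cells of the colon and do not say which part of B3gnt7 was removed, whether a library holds 1 animal or several, or whether the control animals were littermates. Of 24346 gene symbols in the files, the 11559 whose mean over the 4 libraries reached 1 FPKM were compared. An FPKM value is the number of sequenced fragments of a gene, divided by transcript length and library size. Dzip3 lay just inside that limit with a mean of 1.0002 FPKM and Rhebl1 just outside with 0.999.

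B3gnt7 codes for a Golgi enzyme that adds N-acetylglucosamine to a terminal galactose, the step that alternates with galactose transfer to lengthen poly-N-acetyllactosamine chains, among them the backbone of keratan sulfate. In the colon such chains are carried by the O-glycans of mucins and of the glycoproteins on the cell surface, where they can be sulfated, fucosylated and sialylated. Goblet cells secrete the mucin Muc2 into the mucus layer, absorptive colonocytes take up salt and water, and enteroendocrine cells release peptide hormones, so their genes were followed as groups.

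The libraries were deep enough to list between 11392 and 11663 genes at 1 FPKM or more. FPKM sums ran from 518482 to 639537, and the relative depth, as the spacing of values below 0.15 FPKM gave it, from 1 to 1.45. The 10 epithelial markers on the list, among them Epcam and Krt8, were above 0 in all 8 libraries and summed to 13204 to 17819.7 FPKM, while B and plasma cell markers summed to at most 0.922 FPKM and those of enteric glia and neurons to at most 1.93. Xist was at 42.1 to 95.3 FPKM in the 4 female libraries and at most 0.0306 in the males, as the sex labels have it. Values of 0 can be failed estimates: 1 of 76 ribosomal protein genes was listed at 0 in 5 of the libraries.

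The B3gnt7-/- female library stood apart from the other 7. Its correlations with them on the log2 scale were 0.972 to 0.979, whereas the other libraries reached up to 0.989 with each other. The male and female B3gnt7-/- libraries were at least 2-fold apart in 232 genes, against 72 to 93 genes within the other genotypes. In the B3gnt7-/- female library 23 genes lay at least 1 log2 unit above all 7 others and 22 below. Any other library had 0 to 6 above and 0 to 3 below. These counts and the 2-fold ones used genes kept by their mean over the wild-type and B3gnt7-/- libraries. A gene high only in another mutant could thus be missed. Some of the 23, Col3a1 for instance, reached 1 FPKM only through the B3gnt7-/- female library. The 21 markers of stroma, muscle and vessels summed to 53.3 FPKM there against 15.3 to 20.01 elsewhere. Decorin (Dcn), a fibroblast proteoglycan, was at 18.9 FPKM against 2.101 to 3.35, and the fibrillar collagen gene Col3a1 at 3.61 against 0.301 to 0.567. Red blood cell markers summed to 49.2 FPKM against 9.29 to 24.2, and 14 heat shock genes to 2379.8 FPKM against 3775.8 to 6428. For most gene groups below, counts or medians are therefore also given without this library. In such bulk RNA, fewer cells of a type and less RNA per cell cannot be told apart.

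The B3gnt7 transcript was abundant in all 8 libraries. It was at 215 and 189.8 FPKM in the wild-type male and female libraries and at 68.8 and 142 in the B3gnt7-/- male and female libraries, in which order all values below are given. The B3gnt7-/- male library was thus at 32.0% of the wild-type male one and the female library at 74.7% of its wild-type counterpart, and both were below both wild-type libraries. The log2 difference, taken on log2(FPKM + 1) as everywhere here, was -1.03 (SE 0.37, limma, adjusted p = 0.650), so it did not pass the threshold of 0.05. The B3galt5D116A libraries had 266 and 154 FPKM and the St6galnac6-/- libraries 213 and 265, so that the B3gnt7-/- female value lay close to that of the B3galt5D116A female. The gene spans chr1:86303221-86307305 on GRCm38.p6, the assembly also known as mm10. Since the deleted part is not given and an FPKM value covers the whole transcript, these levels do not check what protein could be made. Among 80 tested genes within 10 Mb of B3gnt7, 0 passed, beside 0.0519% of all genes, 7 had an unadjusted p under 0.05, beside 7.28%, and 25 had libraries that did not overlap between the genotypes, beside 34.7%.

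**Figure D1:**
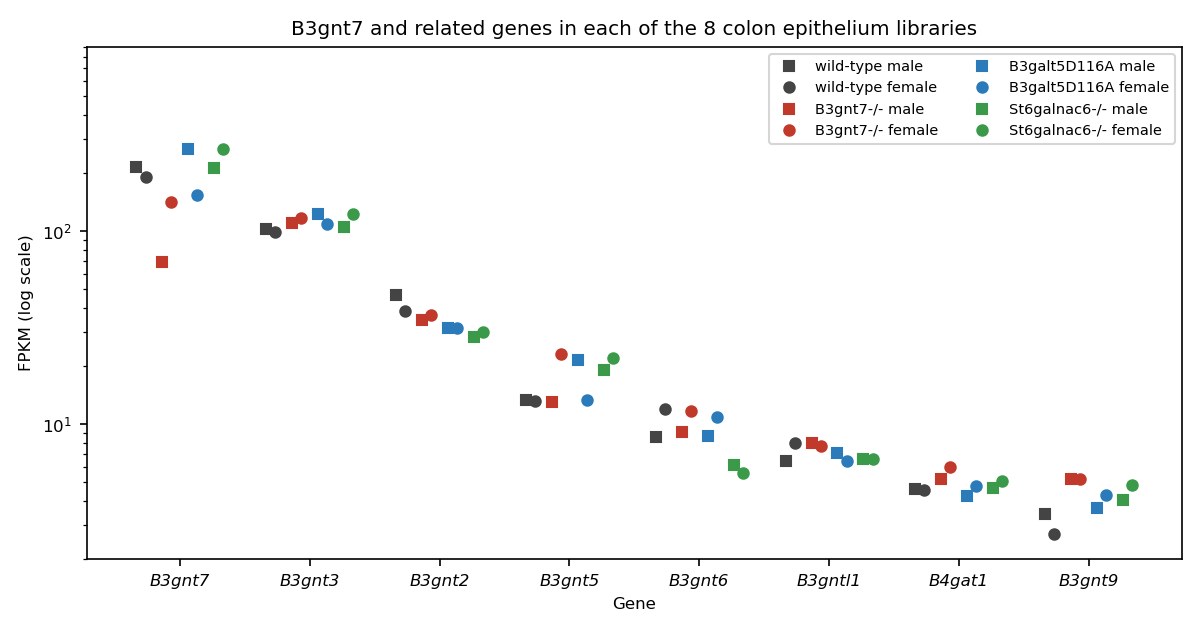
FPKM on a log axis of B3gnt7 and 7 related genes, with 1 point per library, squares for males and circles for females, coloured by genotype. B3gnt7 is at 68.8 and 142 FPKM in the B3gnt7-/- libraries against 154 to 266 in the other 6. B3gnt9 and B4gat1 are above the other 6 in both B3gnt7-/- libraries, and B3gnt6 is lowest in St6galnac6-/-, at 6.12 and 5.58.

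Of the 8 tested B3gnt family genes and relatives, 0 passed the threshold. At an unadjusted p under 0.05 in limma, 1 was higher (B3gnt9) and 1 lower (B3gnt7), beside 2.93% and 4.35% of all genes. B3gnt9, a related transferase gene, was at 3.41 and 2.69 FPKM in wild-type against 5.18 and 5.17 in B3gnt7-/-, above all 6 other libraries, which ran from 2.69 to 4.82 (log2 difference 0.61, SE 0.16, adjusted p = 0.431). B3gnt3, which extends core 1 O-glycans and is the second most abundant member per length, was at 102 and 99.3 against 109.9 and 117 FPKM. B4gat1 was at 4.62 and 4.55 against 5.18 and 6.03 FPKM, also above all 6 others. Libraries did not overlap in 3 higher genes (B3gnt9, B3gnt3 and B4gat1) and 2 lower (B3gnt7 and B3gnt2), beside 16.0% and 18.7% of all genes. B3gnt2, the main poly-N-acetyllactosamine extender in many tissues, was at 46.5 and 38.7 FPKM against 34.5 and 37.0, with the B3gnt7-/- values the lower, and the core 3 enzyme B3gnt6 at 8.58 and 12.1 against 9.07 and 11.7. B3gnt4 and B3gnt8 stayed under 1 FPKM in all 8 libraries.

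The enzymes that act before and after B3gnt7 gave 0 calls in 5 lists (limma), and in those lists 4 of 55 tested members were higher and 3 lower at an unadjusted p under 0.05, beside 2.93% and 4.35% of all genes. With the B3gnt7-/- female library left out, 4 were higher and 5 lower, beside 5.61% and 4.99%. All 16 tested genes of mucin O-glycan initiation and core synthesis had a positive log2 difference, with a median of 0.14 against -0.01 over all genes, and 6 of them had both B3gnt7-/- libraries above both wild-type ones, beside 16.0% of all genes. In the fit without that library 11 of the 16 were positive. Galnt12, a transferase that places the first sugar of O-glycans, was at 47.7 and 47.3 FPKM in wild-type against 62.1 and 60.3 in B3gnt7-/-. The sialyltransferases (10 tested) had a median of -0.00, the fucosyl and blood group transferases (10 tested) 0.08, the galactosyltransferases (10 tested) -0.08 and the sulfotransferase list (9 tested) -0.03. St8sia5, a sialyltransferase of gangliosides, was at 1.89 and 5.61 against 0.890 and 0.538 FPKM. It was also at 1.20 and 0.735 and 0.0947 and 0.0424 in the other 2 mutants, and reached the limit of 1 FPKM only through wild-type. Papss1, which makes the sulfate donor, was at 79.9 and 81.4 FPKM in wild-type against 66.3 and 67.9 in B3gnt7-/-, and St6galnac6 and B3galt5, the genes altered in the other mutants, were at 397 and 444 and at 109.6 and 162 FPKM in B3gnt7-/- against 368 and 343 and 117 and 105 in wild-type.

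Across all genes, 6 passed the adjusted threshold, 0.0519% of those tested. Of these, 1 rose (0.00865%) and 5 fell (0.0433%). At an unadjusted p under 0.05 there were 339 higher (2.93%) and 503 lower genes (4.35%). Genes were also ranked by the smallest shift, the difference between the closest pair of a B3gnt7-/- and a wild-type library. By that measure 1850 genes (16.0%) had both B3gnt7-/- libraries above both wild-type ones and 2164 (18.7%) had both below, and the smallest shift reached 1 log2 unit in 5 higher (0.0433%) and 11 lower genes (0.0952%). Just short of that size were Insl5 with 0.96 and Amph with 0.96, and Cxcl2 with -0.97; just past it were Reg4 with 1.11 and Fxyd4 with -1.08. The libraries of a genotype differ in sex and so came from different animals. Whether each holds 1 animal, a culture or a pool is not in the labels, so p-values measure a spread between libraries. That spread was pooled over all 8 libraries of the 4 genotypes, with sex as a term, and combined with a prior from all genes.

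**Figure D2:**
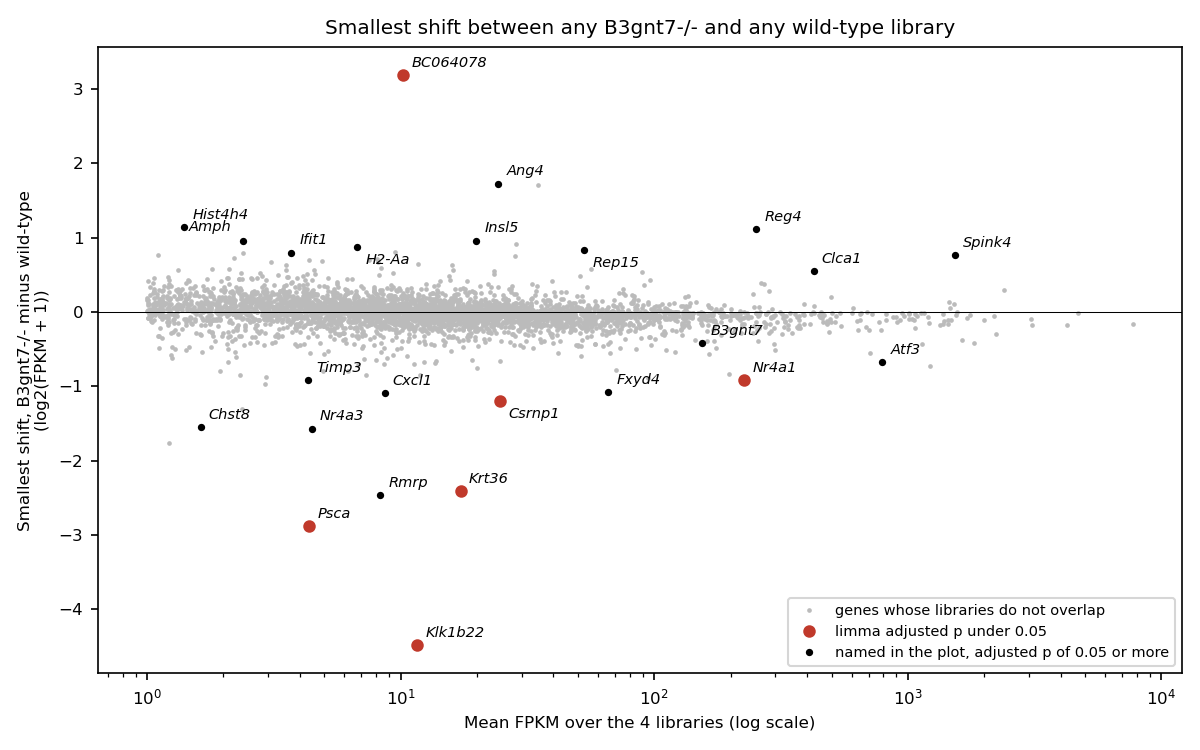
Smallest shift between any B3gnt7-/- and any wild-type library in log2(FPKM + 1) against mean FPKM over the 4 libraries (log axis), 1 point per gene whose libraries do not overlap. Red points are the 6 genes with an adjusted p under 0.05; B3gnt7 has a smallest shift of -0.42.

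The gene that rose was BC064078, a long noncoding RNA gene at chr6:128992961-129006647. It was at 0 and 0.307 FPKM in wild-type against 29.6 and 10.9 in B3gnt7-/-, and at most 0.133 FPKM in the 4 libraries of the other mutants. Both B3gnt7-/- libraries therefore lay above all 6 others (log2 difference 4.06, SE 0.38, limma, adjusted p = 0.0352). The mean of BC064078 reached the limit of 1 FPKM only through the B3gnt7-/- libraries. With a pseudocount of 0.1 in place of 1 the adjusted p was 0.211, and without the wild-type male or female library it was 0.371 or 0.178.

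Klk1b22, a serine protease gene of the tissue kallikrein family at chr7:44112673-44116922, was at 21.3 and 25.3 FPKM in wild-type, whereas both B3gnt7-/- libraries list it at 0 (limma, adjusted p = 3.46e-04). It was listed at 0 in both B3galt5D116A libraries too, and at 22.3 and 16.8 FPKM in St6galnac6-/-. Kallikrein genes are near copies of each other, and how the authors assigned reads among them is not given in the sources used here. The abundant family member Klk1 was at 2572 and 2660.1 FPKM in wild-type against 1595 and 2097 in B3gnt7-/- (adjusted p = 0.658).

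Psca, a membrane-anchored protein of the Ly6 family at chr15:74714839-74717065, fell from 10.1 and 7.20 FPKM in wild-type to 0.112 and 0 in B3gnt7-/- (log2 difference -3.18, SE 0.19, adjusted p = 0.00315). As with Klk1b22, the B3galt5D116A libraries were also near 0, at 0.326 and 0, and the St6galnac6-/- libraries were not, at 5.97 and 6.27. Chst8, a sulfotransferase gene that did not pass (adjusted p = 0.131), had the same arrangement, with 2.87 and 3.04 FPKM in wild-type, 0.268 and 0.320 in B3gnt7-/-, 0.259 and 0.336 in B3galt5D116A and 2.63 and 1.59 in St6galnac6-/-. This likeness of the 3 genes was seen after their values were known. All 3 reached the limit of 1 FPKM over the 4 libraries only through wild-type.

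Krt36, a type I keratin gene at chr11:100102012-100109487, fell from 34.4 and 27.9 to 4.42 and 2.098 FPKM (log2 difference -2.96, SE 0.25, adjusted p = 0.0230). The other mutants were at 2.91 to 4.62 FPKM, so here the 2 wild-type libraries stood above the other 6. Csrnp1, a nuclear protein of the immediate early class at chr9:119971163-119984742, fell from 39.1 and 34.1 to 14.3 and 11.2 FPKM (log2 difference -1.46, SE 0.14, adjusted p = 0.0352) and was at 10.9 to 14.0 in the other mutants. Nr4a1, an orphan nuclear receptor at chr15:101253902-101274795, fell from 355 and 288 to 152 and 108 FPKM (log2 difference -1.31, SE 0.13, adjusted p = 0.0352), again with the other mutants close by at 108 to 124. Without the B3gnt7-/- female library Csrnp1 and Nr4a1 no longer passed, with adjusted p of 0.0725 and 0.0635, while the other 4 called genes passed. Without the male or the female wild-type library, Psca (adjusted p = 0.0754 or 0.0667), Krt36 (0.371 or 0.377), Csrnp1 (0.488 or 0.483) and Nr4a1 (0.540 or 0.526) did not pass, and Klk1b22 did.

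**Figure D3:**
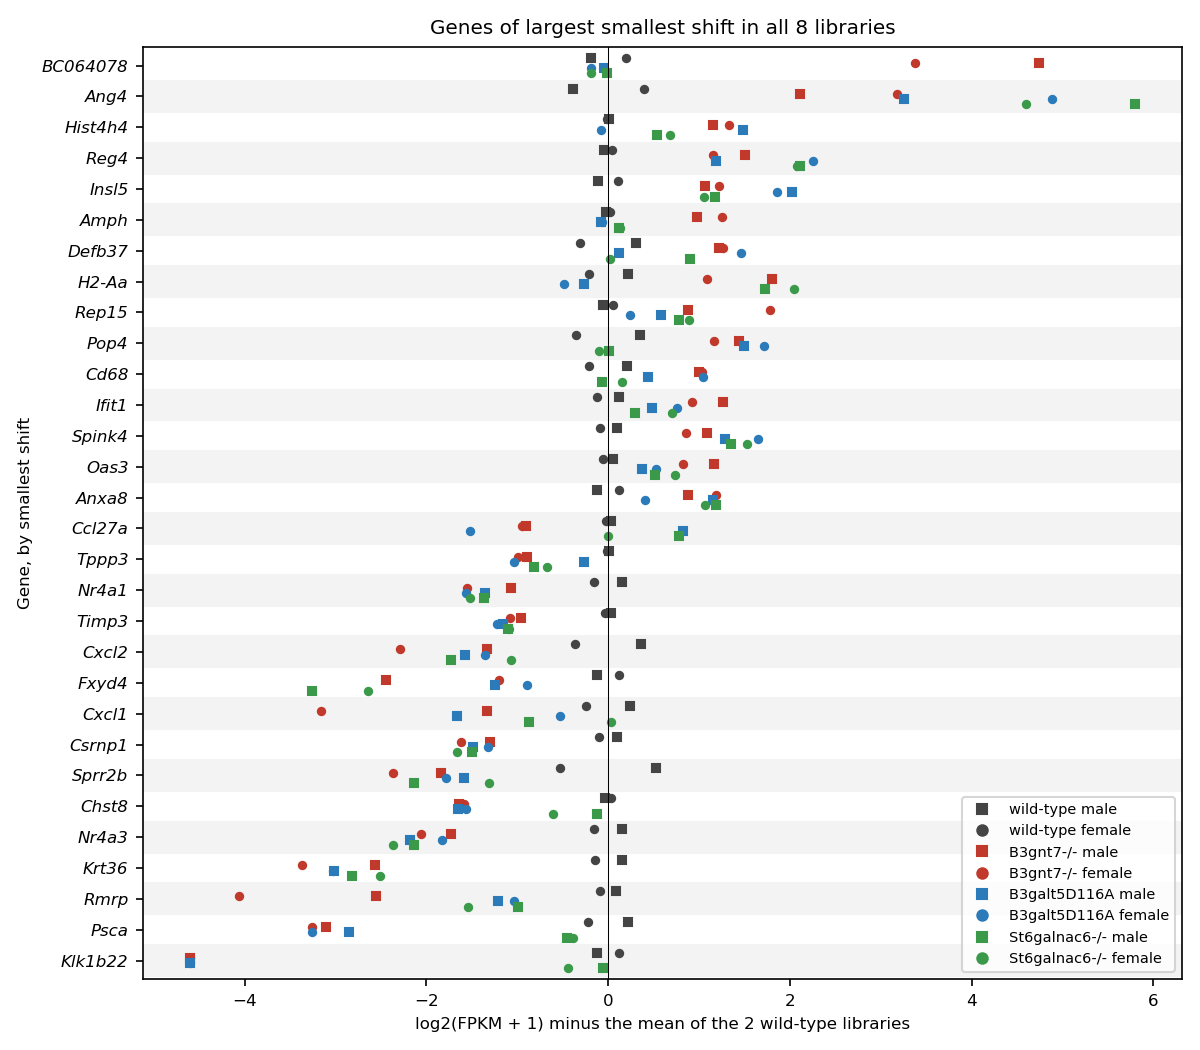
log2(FPKM + 1) minus the mean of the 2 wild-type libraries for the 15 higher and 15 lower genes of largest smallest shift that the naming rule allows, 1 point per library, squares for males and circles for females, coloured by genotype. BC064078 and Amph are highest in the 2 B3gnt7-/- libraries, whereas for Krt36, Csrnp1, Nr4a1 and Nr4a3 all 6 mutant libraries lie to the left of wild-type.

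Among the higher genes that led by smallest shift but did not pass, several belong to secretory cells. Ang4, an antimicrobial ribonuclease of crypt secretory cells, was at 3.98 and 7.56 FPKM in wild-type against 27.3 and 58.2 in B3gnt7-/- (log2 difference 2.65, SE 0.57, adjusted p = 0.362). Reg4, a lectin of deep crypt secretory cells, was at 138 and 146 against 405 and 318 FPKM (adjusted p = 0.388). Insl5, a hormone of colonic enteroendocrine cells, was at 11.04 and 13.0 against 26.2 and 29.2 FPKM (adjusted p = 0.0747). None of the 3 overlapped between the genotypes, and all 3 were also above wild-type in the other 2 mutants, at 61.5 to 361, 325 to 681 and 26.0 to 51.8 FPKM.

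Amph, coding for the membrane-bending protein amphiphysin, behaved otherwise: its 2 wild-type libraries had 1.09 and 1.17 FPKM, those of B3gnt7-/- 3.21 and 4.09 and those of the other mutants 1.01 to 1.33, with an adjusted p of 0.213 against wild-type. H2-Aa, a chain of major histocompatibility complex (MHC) class II, was at 3.69 and 2.49 against 13.1 and 7.59 FPKM, with 2.38 and 1.89 in B3galt5D116A and 12.3 and 15.7 in St6galnac6-/-. Pop4, a protein subunit of the ribonucleases P and MRP, was at 6.63 and 3.68 FPKM in wild-type against 15.2 and 12.4 in B3gnt7-/-, and the RNA subunit of ribonuclease MRP, Rmrp, was the first of the lower genes that did not pass. Rmrp was at 16.7 and 14.7 FPKM in wild-type against 1.83 and 0 in B3gnt7-/-, the second being listed at 0, with 4.73 to 7.40 in the other mutants (log2 difference -3.31, SE 0.35, adjusted p = 0.0528). Both B3gnt7-/- libraries lay below all 6 others for Rmrp, whereas Pop4 was as high in B3galt5D116A, at 15.8 and 18.6. Rmrp reached the limit of 1 FPKM only through the wild-type libraries. The remaining higher genes of this ranking were the histone gene Hist4h4, the defensin Defb37, the Rab15 effector Rep15, the lysosomal Cd68, the interferon-induced Ifit1 and Oas3, the goblet cell peptide Spink4 and the annexin Anxa8, with smallest shifts from 0.76 to 1.14.

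On the lower side, Fxyd4, a regulator of ion transport in the distal colon, was at 92.8 and 109.9 FPKM in wild-type against 17.8 and 43.4 in B3gnt7-/- (log2 difference -1.82, SE 0.23, adjusted p = 0.0976). The B3gnt7-/- female value of Fxyd4 was near the 42.2 and 53.9 FPKM of B3galt5D116A, and St6galnac6-/- was lower, at 9.67 and 15.4. Without the B3gnt7-/- male or female library Fxyd4 passed, with adjusted p of 0.0308 and 0.00488, and it did so in a fit of only the 4 libraries compared (0.0335). Without the wild-type male or female library its adjusted p was 0.99981 and 0.526, and with no sex term 0.266. Timp3, an inhibitor of metalloproteases, was at 6.27 and 5.91 against 2.66 and 2.35 FPKM and at 2.03 to 2.34 in the other mutants. The chemokine gene Ccl27a was at 4.29 and 4.08 against 1.77 and 1.68 FPKM, but its other-mutant values spread from 0.804 to 8.15, on both sides of wild-type.

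**Figure D4:**
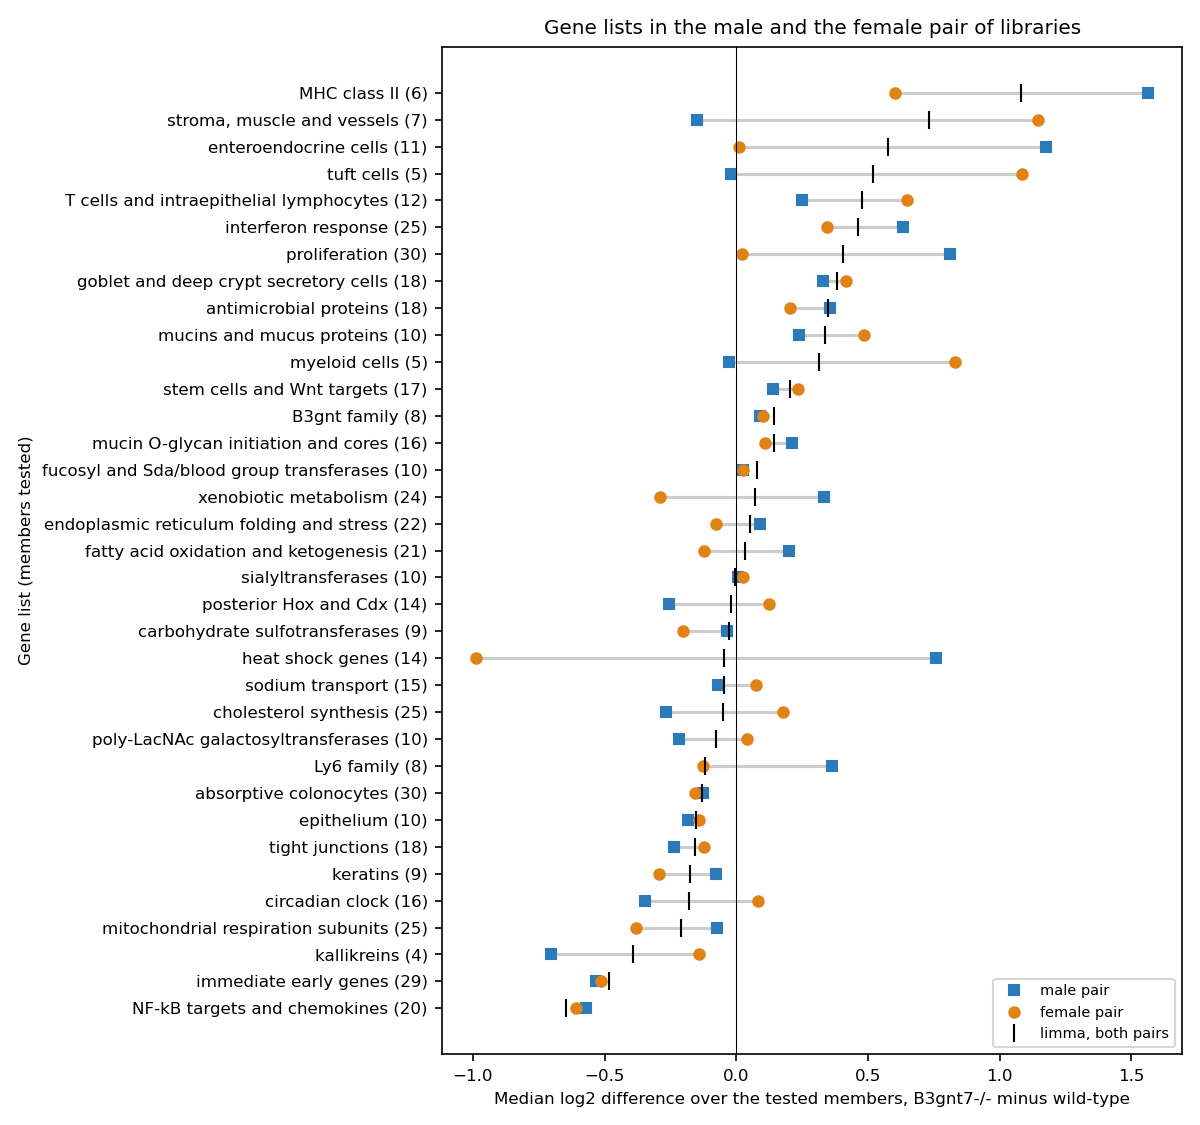
Median log2 difference over the tested members of each gene list, B3gnt7-/- minus wild-type, within the male pair (squares), within the female pair (circles) and in limma (bars). Immediate early and NF-kB lists lie at -0.49 and -0.65 with both pairs close together, while heat shock genes lie at 0.76 in the male pair and -0.99 in the female pair.

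Immediate early genes, which cells switch on within minutes of a stimulus, were lower as a group. Of 29 tested, 2 fell (Nr4a1 and Csrnp1) and 0 rose, beside 0.0433% and 0.00865% of all genes. At an unadjusted p under 0.05, 18 of 29 were lower and 0 higher, beside 4.35% and 2.93% of all genes. The libraries of 21 did not overlap with B3gnt7-/- the lower, against 18.7% of all genes, and the median log2 difference was -0.49, with -0.53 in the male pair and -0.52 in the female pair. Without the B3gnt7-/- female library 14 of 29 were lower at that p, against 4.99% of all genes, and the median was -0.40.

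Atf3, a stress-induced transcription factor, was at 1278 and 869 FPKM in wild-type against 545 and 480.4 in B3gnt7-/- (adjusted p = 0.333). Nr4a3, a relative of Nr4a1, was at 8.51 and 6.66 against 1.58 and 1.05 FPKM (adjusted p = 0.0660), and the AP-1 subunit Junb at 384 and 347 against 256 and 196. None of these 3 overlapped between genotypes. Other members with very high levels were close: Fos was at 1501 and 1431 against 1179 and 1266 FPKM and Egr1 at 547 and 489.7 against 436 and 443. Dusp1, a phosphatase, was the 1 member higher in both B3gnt7-/- libraries. Against the mean of the other 3 genotypes the list's median was -0.14, and Nr4a1, Nr4a3 and Atf3 were at 108 to 124, 0.651 to 1.40 and 382 to 457 FPKM in the other 2 mutants, which share the wild-type libraries as their control.

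The promoter of Nr4a1 holds a motif found in many of these genes, the core TGACG of the cAMP response element, searched on both strands. In windows of 300 bases around gene starts from RefSeq (GRCm38.p6), 15 of the 24 immediate early genes that matched held it, against 36.2% of 8835 tested genes and 20.8% of all 32851 promoters. The promoter table takes a transcript start inside the Nr4a1 span given above, not its outer end. The 250 bases before that start, on the plus strand at chr15:101266596-101266845, hold 4 matches, in capitals and here all in the reverse orientation:
Nr4a1: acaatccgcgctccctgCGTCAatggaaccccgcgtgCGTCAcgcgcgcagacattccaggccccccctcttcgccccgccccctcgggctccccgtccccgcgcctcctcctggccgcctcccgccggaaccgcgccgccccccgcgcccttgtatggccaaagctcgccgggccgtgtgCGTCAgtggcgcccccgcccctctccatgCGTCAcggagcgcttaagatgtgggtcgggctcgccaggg

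Targets of the transcription factor NF-kB and chemokine genes were lower too. Of 20 tested, 0 passed; 12 were lower and 0 higher at an unadjusted p under 0.05, beside 4.35% and 2.93% of all genes, and the libraries of 14 did not overlap with B3gnt7-/- the lower, against 18.7% of all genes. The median was -0.65, with -0.57 in the male pair and -0.61 in the female pair. Without the B3gnt7-/- female library, in which Tnf, Nfkbia, Tnfaip3, Cxcl1, Cxcl10 and Ccl20 lay at least 1 log2 unit below all 7 others, 8 of 20 were lower at that p, against 4.99% of all genes, and the median was -0.40.

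Cxcl1, a neutrophil chemokine, was at 17.0 and 11.8 FPKM in wild-type against 5.02 and 0.704 in B3gnt7-/- (log2 difference -2.25, SE 0.64, adjusted p = 0.506). Its neighbour Cxcl2 was at 6.56 and 3.56 against 1.34 and 0.199 FPKM (adjusted p = 0.362). Tnfaip3, an inhibitor of NF-kB signalling, was at 129.7 and 85.3 against 49.1 and 17.3 FPKM (adjusted p = 0.362), and in all 3 genes the female B3gnt7-/- library was the lowest of the 8. In the other mutants Cxcl1 was at 3.81 to 14.5, Cxcl2 at 0.771 to 1.81 and Tnfaip3 at 39.1 to 49.3 FPKM. Cxcl5, another neutrophil chemokine, was at 3.98 and 2.23 FPKM in wild-type against 0.860 and 0.663 in B3gnt7-/-. Both B3gnt7-/- values of Cxcl5 were below all 6 others. Cxcl2 and Cxcl5 reached the limit of 1 FPKM only through the wild-type libraries, and so add no support to the counts of this list. Ccl28, Birc3 and Duoxa2 did not follow: Ccl28, for instance, was at 46.1 and 49.7 against 47.2 and 45.3 FPKM.

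Cxcl1 and Cxcl2 carry matches to the kB motif, GGG and TTCC separated by any 3 bases, searched on both strands, which 7 of the 17 matched genes of this list, 7.39% of the tested genes and 5.56% of all promoters hold in the same 300-base windows. The 250 bases before each start, on the plus strand at chr5:90890995-90891244 and chr5:90903649-90903898, have 3 matches each, in capitals, of which the pair in the run GGGAATTTCCC overlap on opposite strands:
Cxcl1: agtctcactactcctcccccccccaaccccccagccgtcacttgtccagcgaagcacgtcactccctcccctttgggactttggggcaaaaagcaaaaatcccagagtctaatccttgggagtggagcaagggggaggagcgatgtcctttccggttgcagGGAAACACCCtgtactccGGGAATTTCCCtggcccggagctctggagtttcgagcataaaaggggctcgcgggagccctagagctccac
Cxcl2: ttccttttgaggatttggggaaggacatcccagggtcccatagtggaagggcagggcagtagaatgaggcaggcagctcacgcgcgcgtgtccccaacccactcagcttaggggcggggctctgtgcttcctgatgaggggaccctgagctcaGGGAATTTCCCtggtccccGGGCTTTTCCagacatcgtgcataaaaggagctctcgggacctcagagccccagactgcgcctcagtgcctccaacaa

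Interferon response genes stood on the other side. Of 25 tested, 0 passed; 12 were higher and 0 lower at an unadjusted p under 0.05, beside 2.93% of all genes, and 18 had both B3gnt7-/- libraries above both wild-type ones, against 16.0%. The median was 0.46, with 0.63 in the male pair and 0.35 in the female pair. Leaving the B3gnt7-/- female library out, 15 of 25 were higher at that p, against 5.61% of all genes, and the median was 0.70. Ifit1, an RNA-binding antiviral protein, was at 2.25 and 1.73 FPKM in wild-type against 6.16 and 4.64 in B3gnt7-/- (log2 difference 1.09, SE 0.22, adjusted p = 0.333). Oasl2, of the oligoadenylate synthetase family, was at 5.24 and 4.48 against 13.9 and 8.94 FPKM, and Oas3, an enzyme of the same family, at 0.457 and 0.348 against 2.13 and 1.48. For these 3 genes both B3gnt7-/- libraries were above all 6 others, whose highest values were 4.04, 8.52 and 1.33 FPKM. In all, 6 list members had this arrangement, against 2.59% of all genes. Oas3 is among them and among the 18, but its mean reached 1 FPKM only through the B3gnt7-/- libraries. It therefore adds no support to these counts. Rsad2, Irf7 and Oas1a did not follow, with Irf7, a regulator of interferon genes, at 62.6 and 50.0 against 70.7 and 49.8 FPKM.

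Ifit1 shows the interferon-stimulated response element, GAAA and GAAA separated by any 2 bases and searched on both strands, that 14 of the 19 matched genes of the list hold, against 3.60% of the tested genes and 3.44% of all promoters. Its 2 matches, in capitals and in the reverse orientation, lie in the 250 bases before the start, on the plus strand at chr19:34640639-34640888:
Ifit1: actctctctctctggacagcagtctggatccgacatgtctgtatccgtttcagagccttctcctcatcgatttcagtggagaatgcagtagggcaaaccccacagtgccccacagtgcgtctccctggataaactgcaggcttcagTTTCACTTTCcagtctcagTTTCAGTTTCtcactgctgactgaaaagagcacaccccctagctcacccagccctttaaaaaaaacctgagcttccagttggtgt

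Of 6 tested MHC class II genes, which present antigen to T cells and are induced in epithelium by interferon gamma, 5 were higher at an unadjusted p under 0.05, beside 2.93% of all genes, 5 did not overlap, beside 16.0%, and 0 passed. The median was 1.08, with 1.56 in the male pair and 0.60 in the female pair. In the fit without the B3gnt7-/- female library 5 of 6 were higher at that p, against 5.61% of all genes, and the median was 1.69. Cd74, the invariant chain, was at 8.53 and 6.55 FPKM in wild-type against 35.9 and 11.9 in B3gnt7-/- (adjusted p = 0.431), with 6.43 and 4.13 in B3galt5D116A and 34.0 and 39.2 in St6galnac6-/-. For Cd74 and H2-Aa the highest of the 8 values was thus that of the St6galnac6-/- female library and the lowest that of the B3galt5D116A female library. Markers of T cells and intraepithelial lymphocytes lay on the same side: all 12 tested had a positive log2 difference, with a median of 0.48 (11 of 12 and 0.28 without the B3gnt7-/- female library), and the 18 listed summed to 47.9 and 45.3 FPKM in B3gnt7-/-, 33.2 and 26.7 in wild-type, and 18.9 to 46.3 in the other mutants. Cd7 and Cd3g, T cell surface proteins, were at 2.34 and 2.93 and 1.51 and 0.956 FPKM in wild-type against 5.35 and 6.80 and 2.42 and 4.59 in B3gnt7-/-. The 20 myeloid markers summed to 40.0 and 41.1 FPKM in B3gnt7-/- and to 28.2 to 35.8 elsewhere, and 4 to 8 of them were listed at 0 in each library. The 5 tested myeloid markers had medians of -0.03 in the male pair and 0.83 in the female pair, so the pairs were not alike. The part of these cells in the interferon and MHC class II values was not tested.

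Goblet and deep crypt secretory genes had a median log2 difference of 0.38. Of 18 tested, 0 passed, 8 were higher and 0 lower at an unadjusted p under 0.05, beside 2.93% and 4.35% of all genes. The libraries of 11 did not overlap with B3gnt7-/- the higher, against 16.0%. Their summed levels were close all the same, at 7713 and 7193 FPKM in wild-type and 7745 and 7516 in B3gnt7-/-. Leaving out the B3gnt7-/- female library, 5 of 18 were higher at that p, against 5.61% of all genes, and the median was 0.20. Spink4, a secreted peptide of goblet cells, was at 1099 and 968 FPKM in wild-type against 2191 and 1869 in B3gnt7-/- (log2 difference 0.97, SE 0.21, adjusted p = 0.362). The other mutants were higher still, at 2514 to 3225. Spdef and Atoh1, transcription factors of the secretory lineage, were at 37.6 and 41.4 and 16.2 and 24.7 FPKM in wild-type against 43.9 and 58.2 and 21.3 and 33.3 in B3gnt7-/-, and the Atoh1 libraries overlapped.

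The mucus itself was represented by 10 tested genes with a median of 0.34, of which 6 were higher without overlap and 1 lower, beside 16.0% and 18.7% of all genes; 0 passed, and 3 were higher at an unadjusted p under 0.05, beside 2.93%. With the B3gnt7-/- female library left out, the median was 0.22. Muc2, the main secreted mucin, was at 1399 and 1250.4 FPKM in wild-type against 1447 and 1786 in B3gnt7-/-, a smallest shift of 0.05. Clca1, a mucus-processing protease, was at 189 and 228 against 335 and 946 FPKM, and Fcgbp, which binds Muc2, at 182 and 176 against 222 and 553. In both genes the female B3gnt7-/- library was more than 2-fold above the male one, and the other mutants ran from 505 to 1091 and from 235 to 579. Muc13, a transmembrane mucin of the cell surface, was at 813 and 744 FPKM in wild-type but lower, at 628 and 619.5, in B3gnt7-/-. The 18 tested antimicrobial genes had a median of 0.35 with 5 higher and 1 lower at an unadjusted p under 0.05, beside 2.93% and 4.35% of all genes, and with 7 higher and 2 lower without the B3gnt7-/- female library, beside 5.61% and 4.99%. Of 11 tested enteroendocrine genes, 5 were higher without overlap, against 16.0% of all genes, with medians of 1.18 in the male pair and 0.01 in the female pair. At an unadjusted p under 0.05 in limma, 3 of the 11 were higher, beside 2.93% of all genes. Leaving out the B3gnt7-/- female library gave a median of 1.06. Pyy, a hormone of these cells, was at 18.1 and 27.4 against 54.5 and 31.0 FPKM. Tuft cell genes (5 tested) had medians of -0.02 in the male pair and 1.08 in the female pair, and in the fit 0.52 with and 0.05 without that library.

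Absorptive colonocyte genes (30 tested) had a median of -0.13, with 10 lower and 3 higher without overlap, beside 18.7% and 16.0% of all genes, and 0 passed. At an unadjusted p under 0.05 in limma, 2 were lower and 1 higher, beside 4.35% and 2.93%. The median was -0.05 without the B3gnt7-/- female library. Saa1, an acute-phase apolipoprotein, was at 851 and 999 FPKM in wild-type against 579 and 417 in B3gnt7-/-, and Lypd8, which binds flagellated bacteria, was at 8637 and 8015 against 7189.9 and 6983. Both genes were lower in all 6 mutant libraries than in both wild-type ones, with 418 to 599.7 and 5513 to 7494 FPKM in the other mutants. Of 18 tight junction genes 11 were lower and 1 higher without overlap, beside 18.7% and 16.0% of all genes, with a median of -0.16; 0 passed, and 5 were lower at an unadjusted p under 0.05, beside 4.35%. Without the B3gnt7-/- female library 3 of 18 were lower at that p, against 4.99% of all genes, and the median was -0.23. Cldn4, a sealing claudin, was at 180.3 and 129 FPKM against 90.3 and 46.9, and occludin (Ocln) at 66.0 and 55.5 against 39.0 and 40.0, with the other mutants at 53.9 to 84.1 and 36.5 to 41.1. Among 9 keratins, Krt36 fell, and Krt23 was at 12.04 and 12.7 against 5.72 and 8.20 FPKM. Subunits of mitochondrial respiration (25 tested) had a median of -0.21, with -0.07 in the male pair and -0.38 in the female pair. Of these, 13 were lower without overlap, against 18.7% of all genes, but 0 were lower at an unadjusted p under 0.05 in limma, beside 4.35%. Cyc1, of complex III, was at 407 and 420.0 against 377 and 280.0 FPKM, and without the B3gnt7-/- female library the list's median was -0.04.

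Proliferation genes had unlike values in the male and the female pair of libraries. The 30 tested had medians of 0.81 in the male pair and 0.02 in the female pair, and 0 had an unadjusted p under 0.05 with both pairs in the limma fit. All 30 had a positive log2 difference, and 16 were higher without overlap, against 16.0% of all genes. In the fit without the B3gnt7-/- female library, 25 of 30 were higher at that p, against 5.61% of all genes. Mki67, a marker of cycling cells, was at 21.2 and 24.9 FPKM in wild-type against 38.6 and 26.0 in B3gnt7-/-. Top2a, a topoisomerase of dividing cells, was at 19.6 and 21.2 against 39.2 and 23.2 FPKM. In both genes the male B3gnt7-/- library alone stood out among the 4, and whether the sexes differ could not be tested with 1 library of each. Against the mean of the other 3 genotypes the list's median was -0.05. Stem cell and Wnt target genes (17 tested) had a median of 0.21 with 3 higher at an unadjusted p under 0.05, beside 2.93% of all genes. Without the B3gnt7-/- female library the median was 0.14. Cd44, an adhesion receptor, was at 9.67 and 12.2 against 15.8 and 16.3 FPKM.

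Setting B3gnt7-/- against the mean of the other 3 genotypes asks which genes stand apart in B3gnt7-/- rather than in wild-type. Here 3 genes passed, 0.0260% of those tested, with 1 higher (0.00865%) and 2 lower (0.0173%). BC064078 rose (adjusted p = 0.0117), and Klk1b22 and Psca fell (adjusted p = 0.00173 and 0.0117), the last 2 being near 0 in B3galt5D116A as well. At an unadjusted p under 0.05 there were 452 genes (3.91%), and 611 (5.29%) had both B3gnt7-/- libraries beyond all 6 others, 299 above (2.59%) and 312 below (2.70%). Amph had a log2 difference of 1.10 (adjusted p = 0.185). Arl5a, a small GTPase of the Golgi, was at 7.34 and 6.44 FPKM in B3gnt7-/- and 11.2 to 12.3 in the other 6 libraries (log2 difference -0.70, adjusted p = 0.330). Mgst1, a membrane glutathione transferase, was at 165 and 153 FPKM against 204 to 258. Apobec1, which edits apolipoprotein B mRNA, was at 29.9 and 27.1 FPKM against 11.8 to 22.6. These 4 did not overlap with the other libraries, and none passed the adjusted threshold. The peptide transporter Slc15a2, the kinase Camk4, the carnitine transferase Cpt1b, the lipase Abhd3 and vimentin (Vim) were also above all 6 others, and the apoptosis gene Bid, the TGF-beta pseudoreceptor Bambi, Mrps35, Chd3os and H2-T22 below. Vim is a stroma marker, at 5.36 and 8.92 FPKM in B3gnt7-/-, and Chd3os overlaps its partner on the other strand, so its reads depend on how strand was counted.

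By position, 40 of 535 tested genes on chromosome 6, which carries BC064078, lay beyond all 6 other libraries (7.48%, against 5.29% of all genes), a share between the 7.83% of chromosome 18 and the 7.42% of chromosome 16. In windows of 10 Mb with at least 20 tested genes, the highest share was 6 of 23 genes (26.1%) from 130 to 140 Mb on chromosome 6, followed by 5 of 22 (22.7%) from 10 to 20 Mb on chromosome 13 and 5 of 32 (15.6%) from 140 to 150 Mb on chromosome 6. The window that holds BC064078, from 120 to 130 Mb on chromosome 6, had 6 of 66 genes (9.09%) and rank 24. Between Ing4, at -3.95 Mb from BC064078, and Bcl2l14, at 5.40 Mb, no tested gene but BC064078 lay beyond all 6 others. Apobec1, Bid, Mgst1 and Mrps35 lie further out but within 20 Mb of BC064078. This arrangement was looked for after the value of BC064078 was known, and no test was made. B3gnt7 itself is on chromosome 1, where 26 of 611 genes (4.26%) lay beyond the other libraries.

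**Figure D5:**
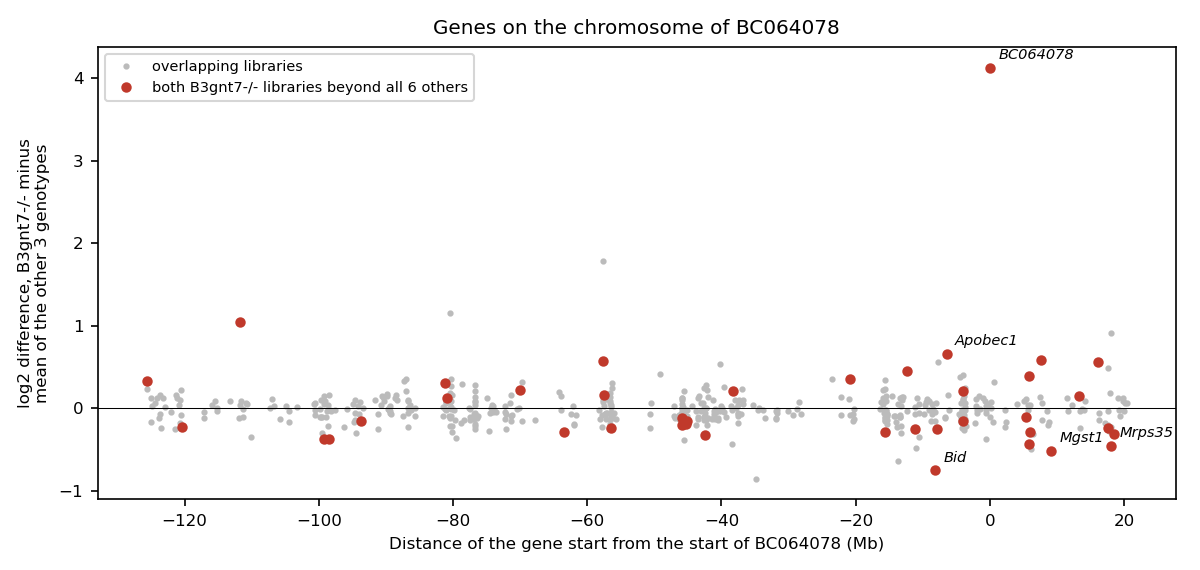
log2 difference of B3gnt7-/- minus the mean of the other 3 genotypes for the 535 tested genes of chromosome 6, against the distance of the gene start from that of BC064078 in Mb. Red points are the 40 genes with both B3gnt7-/- libraries beyond all 6 others; BC064078 is at 4.13.

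Directly against the other mutants, few genes passed. Against B3galt5D116A, 1 gene was higher in B3gnt7-/- (0.00865%) and 0 lower (0%): Erdr1 was at 271 and 297 FPKM in B3gnt7-/-, 62.7 and 62.3 in B3galt5D116A and 242 and 341 in wild-type, so B3galt5D116A was the genotype apart. Against St6galnac6-/-, 5 passed (0.0433%): BC064078, Naip6 and Snora64 were higher in B3gnt7-/- (0.0260%), and Klk1b22 and Psca lower (0.0173%). Naip6, a sensor of bacterial proteins and a member of a family of near copies, was at 0.0784 and 0.0818 FPKM in St6galnac6-/-, 12.8 and 20.4 in B3gnt7-/- and 13.4 and 15.03 in wild-type, so St6galnac6-/- was apart. At an unadjusted p under 0.05 there were 487 genes (4.21%) against B3galt5D116A and 441 (3.82%) against St6galnac6-/-. Erdr1, Naip6 and Snora64 lie outside the naming rule and were named after their values were seen.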

How the data were processed

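RNA of colon epithelial cells was sequenced in 8 libraries, 2 for each of 4 genotypes. Per the labels' protocols, total RNA was extracted with a miRNeasy Micro Kit and libraries were prepared with a TruSeq stranded mRNA kit. According to the submitters' processing notes, Cuffdiff 2.2.1, TopHat2 2.1.1, SAMtools 0.1.18 and Bowtie2 2.2.8 were among the tools, and mm10 was the build. The authors deposited 1 table per library with a symbol and an FPKM value for 24346 genes, per the file headers. The annotation, the strand setting and the scaling between libraries are not given in the sources used here. Read counts were not used here, so no counting interval is given, and depth was only compared between libraries, from the steps between values under 0.15 FPKM. Kits that select polyadenylated RNA and count per transcript length make small RNAs such as Rmrp and Snora64 less certain.

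FPKM values were used on the scale log2(FPKM + 1), that is with a pseudocount of 1. Genes were kept where the wild-type and B3gnt7-/- libraries averaged 1 FPKM or more. A log2 difference on this scale understates the change of low genes. All 8 libraries entered 1 fit in limma 3.58.1 (R 4.3.3) with genotype and sex as terms and a trended prior variance, which left 3 residual and 4.07 prior degrees of freedom. Tests were two-sided, with Benjamini-Hochberg adjustment over all 11559 genes and a threshold of 0.05. The same fit gave the contrasts with the mean of the other 3 genotypes and with each mutant. The fit was also run on simulated data with independent noise and known changes only in genes of higher level. That run cannot show how the fit handles low genes or a library that stands apart.

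The named genes are B3gnt7 and its relatives, St6galnac6 and B3galt5; genes past the threshold; the 15 per direction of largest smallest shift; the 8 per direction of largest smallest shift against the other 6 libraries; and up to 4 members per list. Other list members, such as Dcn, Fos, Muc2, Mki67, Hspa1a and Klk1b4, were named as examples after their values were seen. Unnamed gene models, small nucleolar RNAs and microRNAs are counted only. The genes and lists were chosen with earlier results of these data known. Positions and promoter sequences came from RefSeq tables of GRCm38.p6, matched by symbol; 11008 tested genes had a position, and 105 of the 148 named genes had a promoter entry. Alternatives were other pseudocounts and filters, quantile normalization, median centring, a constant prior variance, no sex term, a fit restricted to the compared genotypes, and each library left out. List counts without the B3gnt7-/- female library were added after seeing the data.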

Additional observations from a re-analysis of the deposited data

Results flagged for a closer look

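Heat shock genes, the chaperones induced by stress, had opposite directions in the male and the female pair of libraries. The median log2 difference of the 14 tested genes, B3gnt7-/- minus wild-type, was 0.76 in the male pair and -0.99 in the female pair. Of the 14, 0 had libraries that did not overlap, beside 34.7% of all genes. In the fit without the B3gnt7-/- female library the median was 0.77. Hspa1a, an inducible Hsp70, was at 153 and 237 FPKM in wild-type against 468 and 77.9 in B3gnt7-/-, and the cytosolic chaperone Hsp90aa1 was at 395 and 525 against 821 and 196. The B3gnt7-/- female library was the lowest of the 8 for both genes, and the male one was close to the other mutants, at 358 to 466 and 759 to 829 FPKM.

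The 24 tested genes of xenobiotic metabolism also had opposite directions, with a median of 0.33 in the male pair and -0.29 in the female pair. In the fit without the B3gnt7-/- female library the median was 0.31. Ugt1a6a, a glucuronosyltransferase, was at 48.1 and 58.6 FPKM in wild-type against 68.0 and 46.7 in B3gnt7-/-, and the sulfotransferase Sult1d1 at 185 and 191 against 224 and 139. Both genes are examples chosen after their values were seen. For neither list was the difference between the sexes tested, since each sex had 1 library per genotype.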

How the results depend on the processing

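The 6 genes past the threshold against wild-type became 2 with no filter on low values and 28 in a fit of only the 4 libraries compared, and 3 to 47 with 1 library left out. Those 47 came without the B3gnt7-/- male library, 11 without the female one (4 of the 6 kept) and 3 without the wild-type female library. Against the mean of the other 3 genotypes, 3 became 1 with no filter and 1 with a mean of at least 5 FPKM, and 1 to 59 with 1 library left out, the 59 again without the B3gnt7-/- male and 1 without either wild-type or the St6galnac6-/- female library. Against B3galt5D116A, 1 became 0 with no filter, with quantile normalization or with a constant prior variance (limma, 822, 465 and 513 genes at an unadjusted p under 0.05), 2 with no sex term and 2 in a fit of only the genotypes compared, and 0 to 46 with 1 library left out. Against St6galnac6-/-, 5 became 3 with a pseudocount of 5, 3 with no filter, 2 with a mean of at least 5 FPKM and 10 in a fit of only the genotypes compared, and 2 to 48 with 1 library left out. Leaving out a library leaves 2 residual degrees of freedom, and where it leaves a genotype with 1 library, that library is assumed to vary like the others.

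Genes with higher, non-overlapping libraries numbered 1850, with 2857 under no filter and 1178 under a mean of at least 5 FPKM; those with lower ones numbered 2164. With fewer libraries to compare these counts can only grow, to 3248 to 4178 and 3479 to 4661. Smallest shifts of at least 1 were reached by 5 higher genes (12 with a pseudocount of 0.1, 20 to 61 with 1 library left out) and 11 lower genes (19 with a pseudocount of 0.1, 6 with a pseudocount of 5, 6 with a mean of at least 5 FPKM, 19 to 73 with 1 library left out). Of 1184 values of 148 named genes under 8 settings, 1140 kept their side of the threshold, 14 lost the call, 30 gained it and 0 reversed; Nr4a1 lost it with no sex term (adjusted p = 0.0831). Of 280 values of 35 list medians, 44 moved by more than the spread between the sexes. The labels give no replicate numbers, so libraries were paired by sex alone, as a term in the fit; with no sex term 7 genes passed against wild-type, 5 of them among the 6. Depth is known only in relative terms, so the smallest level that can be told from 0 is unknown.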

Other observations

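A further list held posterior Hox and Cdx genes, which mark position along the gut, and some other distal colon genes. It had a median log2 difference of -0.02 over 14 tested genes, with 0 past the threshold in limma. At an unadjusted p under 0.05, 1 was lower, beside 4.35% of all genes. That gene was Fxyd4 and no Hox or Cdx gene. Without the B3gnt7-/- female library the median was -0.31, and 3 were lower at that p, against 4.99% of all genes. Hoxb13, the most posterior of the cluster, was at 226 and 198 FPKM in wild-type against 129 and 179.6 in B3gnt7-/-, and the male B3gnt7-/- value was the lowest of the 8. Sodium transport genes (15 tested) had a median of -0.05, and -0.12 without that library. Circadian clock genes (16 tested) had a median of -0.18, with -0.35 in the male pair and 0.08 in the female pair; without the B3gnt7-/- female library all 16 were negative, with a median of -0.42. Nr1d1, a clock repressor, was at 77.5 and 79.6 against 51.1 and 58.4 FPKM and at 36.4 to 67.3 in the other mutants.

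Cholesterol synthesis genes (25 tested) had a median of -0.05, those of fatty acid oxidation and ketogenesis (21 tested) 0.03, and those of protein folding in the endoplasmic reticulum (22 tested) 0.05, and without the B3gnt7-/- female library these medians were -0.06, 0.15 and 0.11. Gstt1, a glutathione transferase, was at 33.7 and 36.3 FPKM in wild-type against 26.8 and 27.3 in B3gnt7-/-, with 32.6 and 35.9 in B3galt5D116A and 23.8 and 21.9 in St6galnac6-/-. In the Ly6 family (8 tested) Psca fell, and Ly6g6c was at 1.36 and 1.16 against 3.40 and 2.89 FPKM, higher without overlap. Of the 4 tested kallikreins Klk1b22 fell, and 2, Klk1b22 included, were lower at an unadjusted p under 0.05, beside 4.35% of all genes. The list's median was -0.39 (-0.68 without the B3gnt7-/- female library), and Klk1b4 was at 2.27 and 1.54 against 1.15 and 1.65 FPKM.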
